A study of Caenorhabditis elegans with 4 samples.

Results

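The peaks described here are the FOS-1::GFP binding regions whose midpoint lies within 500 kb of an end of a chromosome. There are 379 of them among the 6095 peaks of the combined list, for which reads of both ChIP libraries were merged, spread over the 12 ends of the 6 nuclear chromosomes. They were chosen by position alone, with the chromosome lengths of the WormBase WS220 build, in which all positions are given. The 12 windows make up 5.98% of the summed chromosome length and hold 6.22% of the combined peaks. The same windows hold 240 of the 4032 peaks called on ChIP replicate 1 (5.95%) and 115 of the 1987 peaks called on ChIP replicate 2 (5.79%). Left and right are used for the low and the high coordinate end of a chromosome.

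The study mapped where FOS-1 sat on DNA in fed first-stage larvae (fed L1, hermaphrodites) of the nematode Caenorhabditis elegans. There were 2 ChIP libraries, made with an affinity-purified goat antibody against GFP, and 2 input libraries of chromatin set aside before precipitation. Every library came from strain OP304, which carries the unc119 allele ed3 and the integrated transgene wgIs304, grown at 20 °C and fixed in 2% formaldehyde. Thus the ChIP and the input animals alike carried the unc119 mutation and the bombarded transgene, which joins fos-1 to TY1, EGFP and FLAG tags and holds unc119 as well, and strains without the tag were not analysed here. Whole larvae were used, so the cell types in which a region was bound cannot be told apart. The labels do not say whether the replicates were separate cultures, and the spread between them may be technical.

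FOS-1 belongs to the Fos family of basic leucine zipper factors, which bind DNA as dimers, in many animals with a Jun partner. In worms it is studied mainly in the gonad, where the anchor cell needs it to break through the basement membrane. Worm chromosomes are holocentric, that is, spindle fibres attach along their whole length, and no end lies next to a centromere. On the autosomes the outer arms carry more repeats and more marks of silent chromatin than the centres. The ends proper of all chromosomes are capped by telomeric repeats.

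The 12 ends differed from each other in how many peaks they carried. The right end of III held the most combined peaks, 48 (96.0 per Mb, exact Poisson 95% interval 70.8 to 127), followed by the right end of I with 45, the right end of II with 40 and the left end of IV with 39. The right end of V held 37, the left ends of I, III and II held 34, 33 and 28, and the right ends of X and IV held 27 and 21. The fewest were at the left end of V, with 16 (32 per Mb, 18.3 to 52.0), and at the left end of X, with 11 (22 per Mb, 11 to 39.4). The intervals of neighbours in this order overlapped, while those of the left end of X and the right end of III did not. These intervals, and those of shares given further on, cover counting error only, and peaks that lie close together are not independent.

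**Figure D1:**
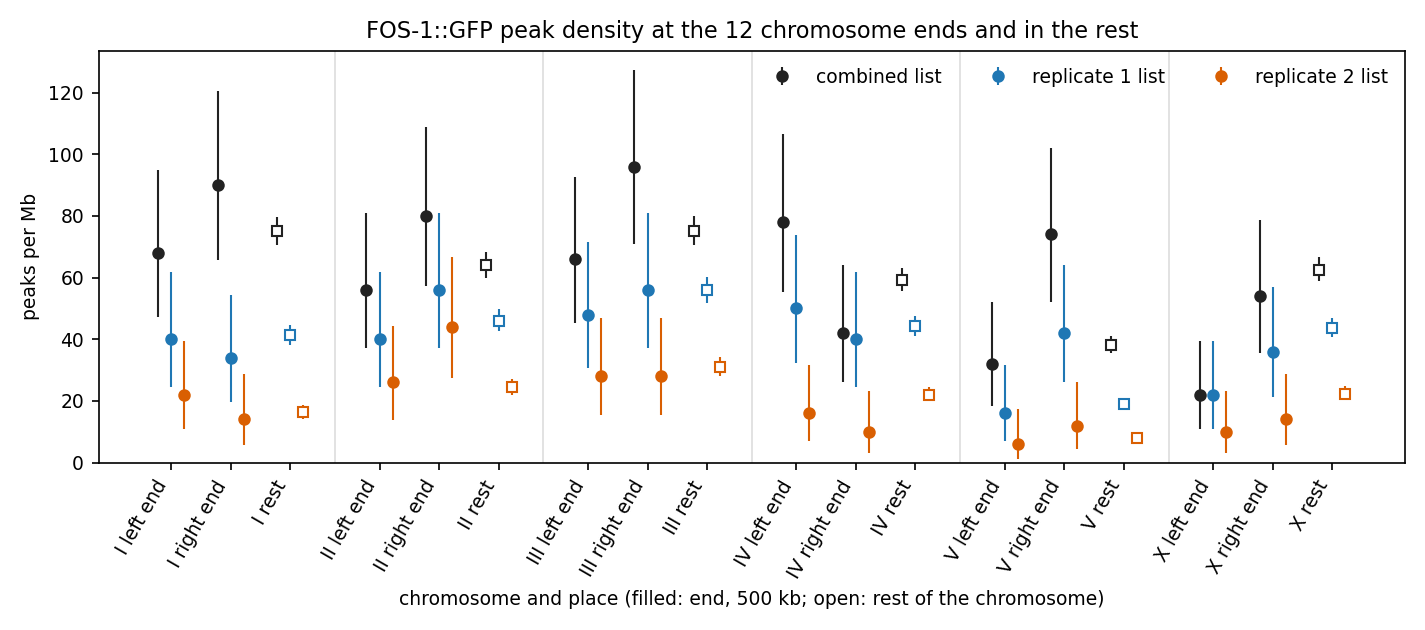
Peaks per Mb (vertical axis) at the left and right 500 kb of each chromosome (filled circles) and in the rest of it (open squares), for the combined list (black), replicate 1 (blue) and replicate 2 (orange), with exact Poisson 95% intervals. Combined values run from 22 per Mb at the left end of X to 96.0 at the right end of III, and the rest of V is the sparsest open square in each list.

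The order shifted at both extremes in the replicate lists. Replicate 1 had 28 peaks at the right ends of II and of III and 8 at the left end of V, and replicate 2 had 22 at the right end of II and 3 at the left end of V. The left end of X had 11 peaks in replicate 1 and 5 in replicate 2. Set against all 35 full windows of 500 kb on X, no window held fewer peaks than the left end in the combined list, in replicate 1 or in replicate 2. The right end of V stood at the other side. It ranked 7th from the most of the 41 windows of V in the combined list, and 2nd in replicate 1, where its 21 peaks compare with a median of 9 in the 39 inner windows. In replicate 2 it held 6 peaks and ranked 10th. Of the 12 ends, 5 held more combined peaks than the median inner window of their own chromosome, and 4 did so in each replicate list.

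Over the 6 chromosomes the ends were neither denser nor sparser than the rest by a margin larger than the spread between chromosomes. The ends averaged 63.2 ± 16.4 combined peaks per Mb and the rest 62.4 ± 13.6 (SD, n = 6 chromosomes), a mean difference of 0.789 per Mb (two-sided exact sign-flip permutation test over chromosomes, p = 0.875). In the lists of single replicates the mean difference had the other sign, −1.70 per Mb in replicate 1 and −1.52 in replicate 2. That average hid chromosomes that moved in opposite directions. On the 5 autosomes the ends were denser than the rest, by 0.705 per Mb on IV, 3.96 on I, 4.06 on II, 5.83 on III and 14.8 on V. On X they were sparser by 24.6 per Mb, at 38.0 per Mb (26.9 to 52.2) for the ends and 62.6 per Mb (58.9 to 66.5) for the rest. The autosomes alone gave a mean difference of 5.87 per Mb, higher for the pooled ends on 5 of 5 (exact permutation p = 0.0625, the smallest that 5 chromosomes can give). Those small autosomal differences depended on the list. In replicate 1 the ends were denser on II, IV and V and sparser on I and III, with 29.0 per Mb at the ends and 19.0 in the rest of V. In replicate 2 they were denser on I, II and V and sparser on III and IV. On X the ends were sparser in both replicates, with 29.0 per Mb at the ends and 43.7 in the rest in replicate 1, and 12 and 22.4 in replicate 2.

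Within the windows, peaks were denser toward the very end, with intervals that did not overlap only in the combined list, which holds the most peaks. Taking the 12 ends together, the outermost 200 kb carried 75.4 combined peaks per Mb (64.8 to 87.2) and the next 300 kb carried 55 (47.6 to 63.2). The outer part was the denser one at 9 of 12 ends in the combined list, at 9 in replicate 1 (48.3 and 34.4 per Mb overall) and at 8 in replicate 2 (21.3 and 17.8 per Mb). The intervals of the 2 parts overlapped in replicate 1 (39.9 to 58.0 and 28.6 to 41.1) and in replicate 2 (15.8 to 27.9 and 13.7 to 22.7). Replicate 2 had 26.7 per Mb in the first 100 kb but 15.8 between 100 and 200 kb. Beyond the limit of 500 kb the combined density was lower still, with 37.5 combined peaks per Mb between 600 and 700 kb and 53.3 between 900 and 1000 kb. The 500 kb beside the windows held 282 combined peaks, 47.0 per Mb (41.7 to 52.8). Replicate 1 was also sparser there, with 40.0 per Mb at the ends and 29.8 beside them, while replicate 2 had 19.2 per Mb at the ends and 18.8 beside them. Ends exceeded that neighbouring stretch by 16.2 per Mb on average over the 6 chromosomes, which did not pass the test (exact permutation p = 0.125). A single measure could not pass after adjustment over 8 measures, so the test cannot decide whether ends and neighbouring stretches differ. The ends were the denser ones on the 5 autosomes, while X had 38.0 per Mb at the ends and 61 per Mb beside them. The zone of 200 kb was picked after the profile had been seen, and no test was made of it.

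**Figure D2:**
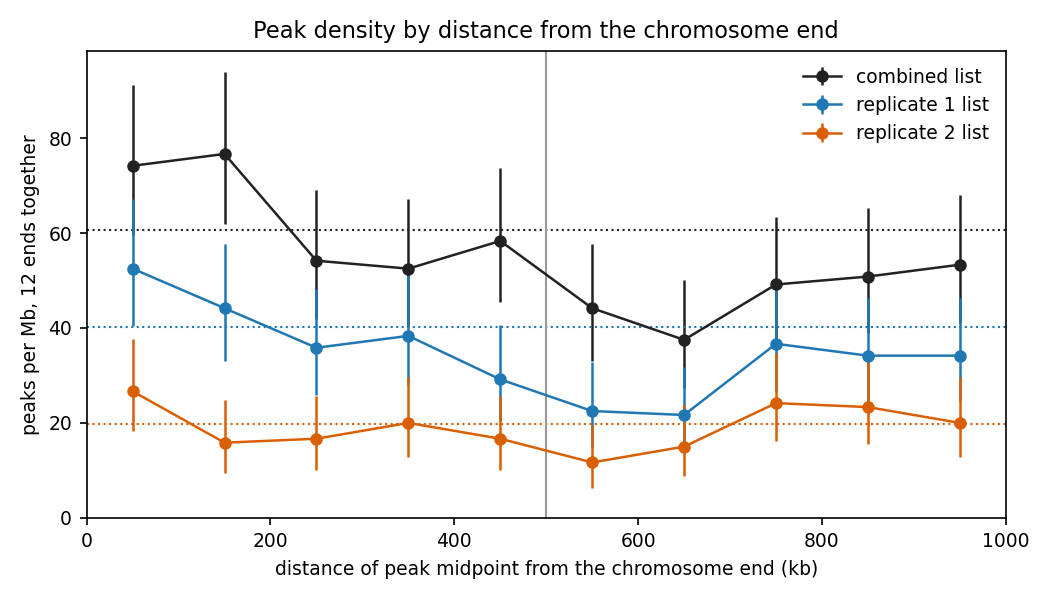
Peaks per Mb (vertical axis) in steps of 100 kb from the chromosome end (horizontal axis, kb), summed over the 12 ends, for the combined list (black), replicate 1 (blue) and replicate 2 (orange), with exact Poisson 95% intervals. Dotted lines give each list's density in the rest of the genome, and the grey line marks the 500-kb limit; the first 2 steps of the combined list, at 74.2 and 76.7 per Mb, lie above the dotted line.

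Single ends did not all follow this profile. The right ends of II and III had 16 and 15 combined peaks in their first 100 kb, the left end of III had 14 and the left end of II had 12. At the left end of III only 1 peak followed in each of the next 2 steps of 100 kb. The left end of X had no combined peak in its first 100 kb and 1 in the next, and the first 100 kb of the left end of IV and of the right end of I had 1 each. At the right end of V, 17 of 37 combined peaks lay between 100 and 200 kb. The longest stretch free of combined peaks within a window was 169.99 kb, at the right end of X, then 157 kb at the left end of X, and at the other ends it was between 51.3 and 126 kb. Of the gaps between neighbouring peaks, those no longer than 2000 bp made up 29.2% of 367 (exact 95% interval 24.6 to 34.1) at the ends and 28.3% of 5710 gaps (27.1 to 29.5) in the rest.

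**Figure D3:**
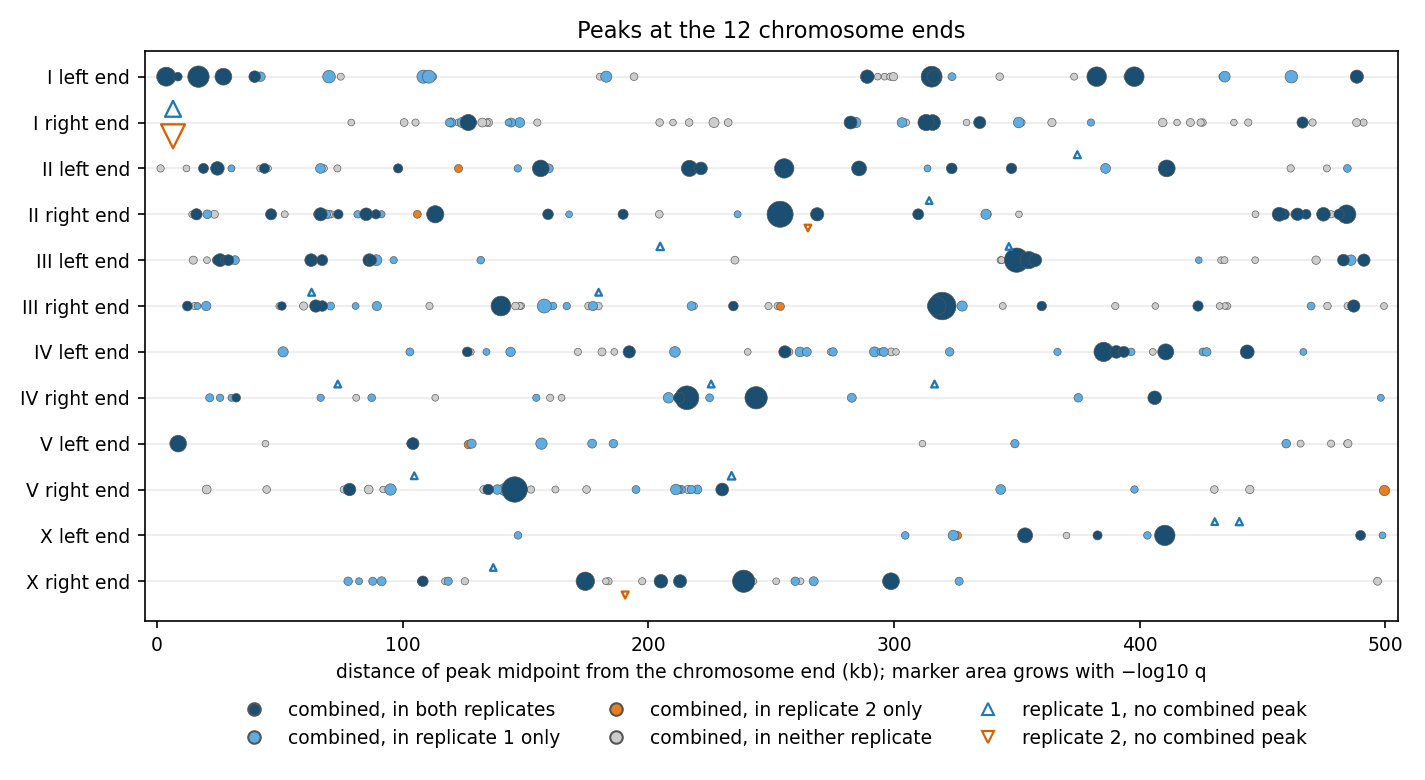
Each row is a chromosome end, and each circle is a combined peak at its distance from the end (horizontal axis, kb), with an area that grows with −log10 q and a colour for the replicate lists it overlaps; open triangles are replicate peaks with no combined peak. The pair of large triangles near 6.60 kb at the right end of I is the strongest such pair, and the left end of X is empty for its first 146.9 kb.

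The strongest end peaks were called in both replicates. Each peak carries a q value, the caller's false discovery measure for ChIP reads over input reads, as the authors deposited it, and it ranks peaks within a list. The lowest q at any end was at III 13462695 to 13465329, 319.7 kb from the right end, which was also the widest end peak (2635 bp, q = 8.41e-58, 46th in the whole list). It covered 2 peaks of replicate 1 and 2 of replicate 2. Next came II 15025178 to 15026142 at the right end (965 bp, q = 1.04e-51), V 20777821 to 20779172 at the right end (1352 bp, q = 3.00e-49) and III 349321 to 350541 at the left end (1221 bp, q = 7.40e-45). A pair at the right end of IV followed, IV 17277180 to 17278855 (1676 bp, q = 1.18e-42) and IV 17249681 to 17250051 (371 bp, q = 8.54e-38). The rest of the first 10 were X 17479399 to 17480623 (q = 1.82e-37), I 16719 to 17195 (q = 1.48e-34), I 315067 to 315649 (q = 6.00e-33) and X 409950 to 410582 (q = 2.63e-31). All 10 overlapped a peak in each replicate list, as did 98.6% of the strongest 10% of combined peaks that lie in the rest.

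Each end had its own strong region. The lowest q at the left end of II was 2.14e-28 (II 255132 to 255585), at the left end of IV 3.89e-28 (IV 384882 to 385830), at the left end of V 9.10e-21 (V 8105 to 9293) and at the right end of I 9.07e-20 (I 14758839 to 14759798). Those 4, with the 8 ends already represented, make 12 of 12 ends whose strongest peak was found in both replicates, a share near that of other strong peaks. Such peaks did not crowd at the ends. Of the 379 end peaks, 33 (8.71%) were among the strongest 10% of all combined peaks by q. These were spread over all 12 ends, with 6 at the left end of I, 5 at the left end of II and 1 at either end of V.

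Distances from the outermost peak to the chromosome end varied widely. On the left ends of II, I and V the outermost combined peak began 1.51, 3.55 and 8.10 kb from the end. It lay 12.3 to 21.4 kb from the end at the right ends of III, II, V and IV and the left end of III, and 51.2 kb at the left end of IV. The right ends of X and I and the left end of X came last, at 77.7, 79.1 and 146.9 kb. The outermost peaks at the left ends of I and V, I 3553 to 4093 (541 bp, q = 3.94e-27) and V 8105 to 9293 (1189 bp), were called in both replicates. At III 13771120 to 13771392 (273 bp, q = 8.34e-07) the outermost peak was also in both lists. Those at the left ends of IV and X and the right ends of IV and X were in replicate 1 only. Neither replicate held the other 5, at the left ends of II and III and the right ends of I, II and V, of which 2 were 21 and 14 bp wide, narrower than the 36-bp reads.

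The right end of chromosome I differed between the lists. Both replicates had a wide peak close to its tip, from 15064000 to 15067635 in replicate 1 (3636 bp, q = 6.38e-19, 189th of 4032) and from 15063997 to 15067644 in replicate 2 (3648 bp, q = 2.70e-43, 7th of 1987). The peak ended 4.79 kb from the chromosome end in replicate 1 and 4.78 kb in replicate 2. The combined list as analysed here had no peak there. Whether an earlier form of that list held one is not known, and this bears on the outermost distance at that end and on the counts of unmatched replicate peaks. The outermost combined peak on that side was 21 bp wide (I 14993262 to 14993282, q = 0.00657), 70.7 kb away from the replicate peaks. In both replicate lists the wide peak near the tip had the lowest q of all those without a combined peak, anywhere in the genome. The next such peak of either list lay on III at 931227 to 931831, outside the windows, with q = 1.14e-05 in replicate 1 and 3.08e-05 in replicate 2 (931228 to 931827 there). As background, the ribosomal RNA repeat of this species is known to lie at the right end of I. In RefSeq's gene table of the later WBcel235 assembly, 4 of the outermost 10 genes at that end are rRNA genes, and none of the outermost 10 at any of the other 11 ends is. Positions were not carried between assemblies, so the peak was not assigned to a gene. The sample table lists 0 reads mapped to several places for each library, and the part that repeated sequence plays in this peak was not tested.

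The other replicate peaks without a combined peak were weak at the ends, as were most such peaks elsewhere. Counting the peak at the tip of I, there were 15 in replicate 1 (6.25% of its 240 end peaks), against 5.16% of all replicate 1 peaks, and 3 in replicate 2 (2.61% of 115), against 1.16% of all replicate 2 peaks. Leaving out that peak, the lowest q among them was 0.0010 in replicate 1, at V 20690199 to 20690228 (30 bp), and 0.00479 in replicate 2, at X 17528177 to 17528312 (136 bp). Next among them came, in replicate 1, III 204867 to 204896 (30 bp, q = 0.00151), and, in replicate 2, II 15014342 to 15014346 (5 bp, q = 0.00997). None of these had a counterpart in the other replicate. By q, the peak on V stood 23rd of all 208 unmatched replicate 1 peaks. The peak on X stood 10th of all 23 unmatched replicate 2 peaks. Of the 15 unmatched end peaks in replicate 1, 4 lay within 2000 bp of a combined peak, the nearest 0.01 kb away. By chromosome, the share of replicate 1 peaks without a combined peak averaged 6.41% ± 2.69 at the ends and 4.90% ± 1.53 in the rest (SD, n = 6; exact permutation p = 0.25). In replicate 2 it averaged 2.79% ± 3.51 at the ends and 0.894% ± 0.742 in the rest (SD, n = 6; exact permutation p = 0.3125). The mean difference in replicate 2, 1.90 percentage points, was 0.971 without the peak at the tip of I.

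Most end peaks were found in replicate 1 and fewer in replicate 2, as elsewhere. Of the 379, 222 (58.6%) shared 1 bp or more with a replicate 1 peak, against 61.8% of all combined peaks, and 110 (29.0%) overlapped a replicate 2 peak, against 31.5% of all. Both replicates held 103 (27.2%), against 29.1% of all, and neither held 150 (39.6%, exact 95% interval 34.6 to 44.7), against 35.8% of all. By chromosome, none of these shares passed the test, in which a single measure could not reach the threshold after adjustment over 8 measures. Overlap with replicate 1 averaged 59.7% ± 10.4 at the ends and 61.7% ± 9.31 in the rest (SD, n = 6; exact permutation p = 0.625). Overlap with replicate 2 averaged 28.5% ± 11.9 at the ends and 31.5% ± 8.27 in the rest (SD, n = 6; exact permutation p = 0.5). The share in neither averaged 38.3% ± 10.9 at the ends and 35.9% ± 9.997 in the rest (SD, n = 6; exact permutation p = 0.59375). ChIP replicate 2 had fewer uniquely mapped reads than replicate 1, 2961912 and 3763795. Absence from its list means that no call was made and does not show whether the region was bound. The combined list was called on the same reads, so these shares are not an independent check.

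**Figure D4:**
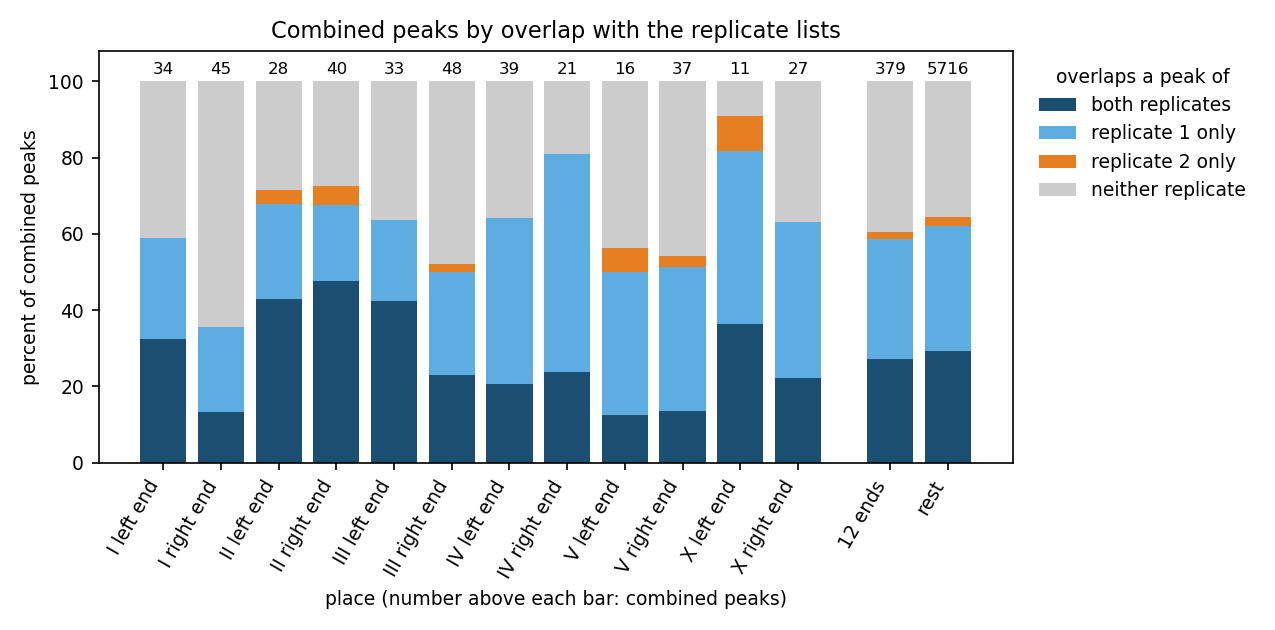
Percent of combined peaks (vertical axis) by the replicate lists they overlap (both, replicate 1 only, replicate 2 only, neither), for each of the 12 ends, for the 12 ends together and for the rest; the number of combined peaks stands above each bar. The grey part reaches 64.4% at the right end of I and 9.09% at the left end of X.

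Shares differed widely between single ends, where the counts are small. At the right end of I, 29 of 45 combined peaks (64.4%, exact interval 48.8 to 78.1) overlapped neither replicate, and replicate 1 held 17 peaks there, 0.378 for each combined peak. On the rest of I the share was 46.1% and the ratio 0.550. At the left end of X, 1 of 11 (9.09%, 0.230 to 41.3) overlapped neither, and replicate 1 held as many peaks as the combined list. In the rest of X 32.2% overlapped neither. The right end of IV had 4 of 21 in neither (19.0%, 5.45 to 41.9) and 20 replicate 1 peaks, and the rest of IV had 29.7% in neither. The densest end, the right end of III, had 23 of 48 in neither (47.9%, 33.3 to 62.8), while the rest of III had 27.3%. The ends of II had the largest overlap with replicate 2, 52.5% on the right and 46.4% on the left, compared with 36% in the rest of II. On V, 18.8% of combined peaks on the left and 16.2% on the right overlapped replicate 2, near the 20.9% in the rest of V. Within the windows the replicates matched each other about as they did elsewhere. Of the replicate 2 peaks at the ends, 105 of 115 (91.3%) overlapped a replicate 1 peak, and 91.1% of those in the rest did. In the other direction the match was lower: 106 of 240 replicate 1 peaks at the ends (44.2%) overlapped a replicate 2 peak, and 44.4% of those in the rest did. No test was made between single ends.

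No difference in width or strength passed the test. The median end peak was 288 bp wide (quartiles 184.5 and 410.0), and the rest had 317 bp (202 and 440.0). By chromosome the median width averaged 290 bp ± 27.0 at the ends and 317 bp ± 6.81 in the rest (SD, n = 6), narrower at the ends on 5 of 6 (exact permutation p = 0.0625). The mean difference, −27.5 bp, was −18.4 bp in the replicate 1 list and −2.92 bp in the replicate 2 list. In the combined list it was −14.7 bp without peaks narrower than a read, −16 bp without chromosome III and −33.5 bp without chromosome II. Chromosome III had the largest gap, with 237 bp at the ends and 322 bp in the rest, and its right end had the smallest median of the 12, 213 bp. Median −log10 q averaged 3.87 ± 0.632 at the ends and 3.99 ± 0.262 in the rest (SD, n = 6; exact permutation p = 0.6875), higher at the ends on II and V and lower on I, III, IV and X. The mean difference, −0.12, was 0.00651 in the replicate 1 list and 0.183 in the replicate 2 list. The left end of I had the strongest median, q = 9.24e-07, and the right end of III the weakest, q = 0.000748. The smallest p that 6 chromosomes allow is 0.03125, and after Benjamini-Hochberg adjustment over the 8 measures compared the exact permutation p-values lay between 0.5 and 0.875. Even at that smallest p, a single measure could not reach the threshold of 0.05 after adjustment. A difference in 1 measure alone could therefore not pass, whatever its size.

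**Figure D5:**
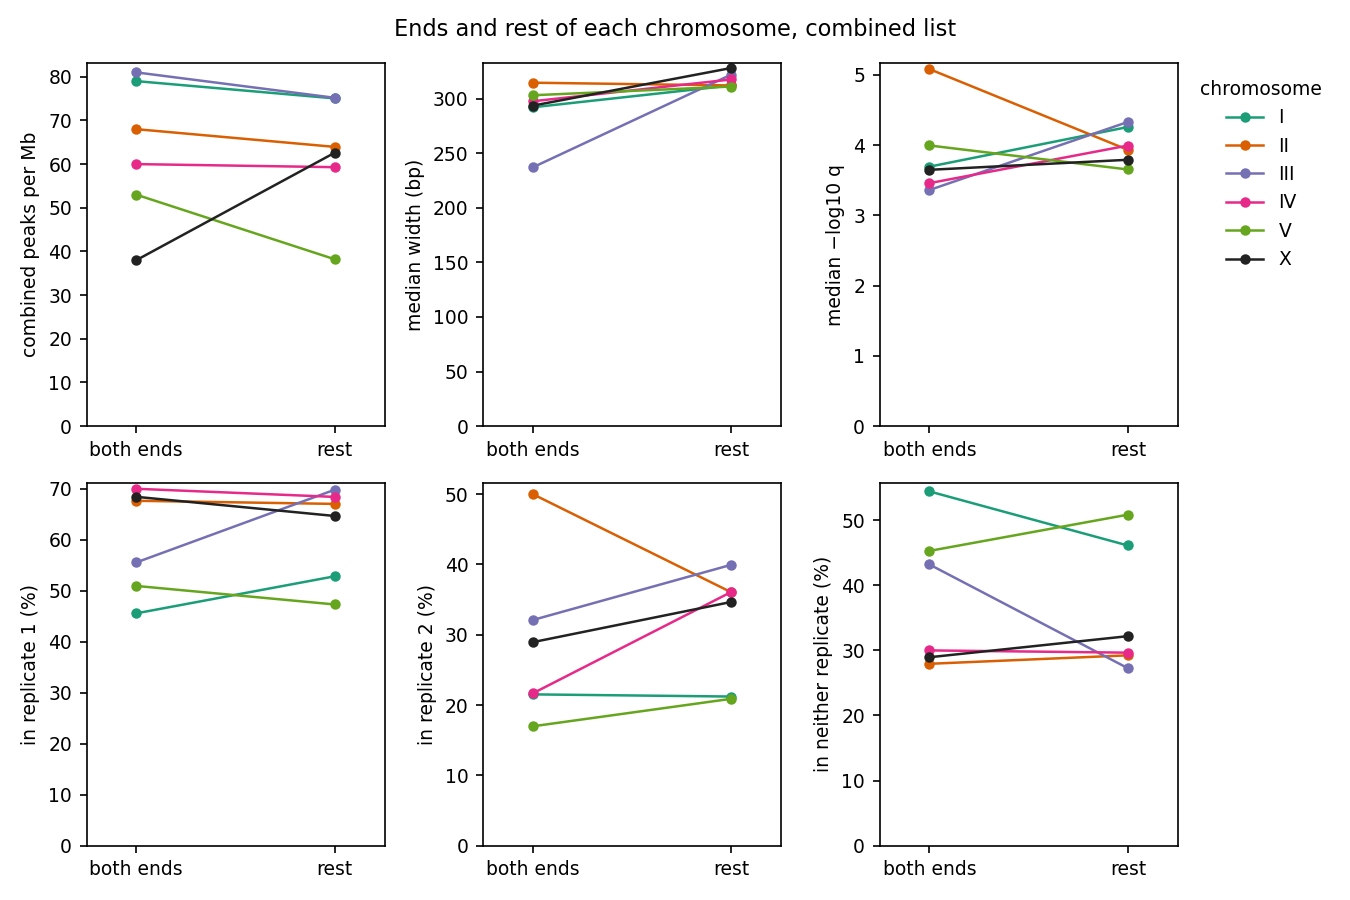
Values at both ends (left) and in the rest (right) of each chromosome, a line per chromosome, for 6 measures of the combined list: peaks per Mb, median width in bp, median −log10 q, and the percent overlapping replicate 1, replicate 2 and neither. In the first panel 5 lines fall toward the rest and that of X climbs, with 38.0 peaks per Mb at the ends and 62.6 in the rest.

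Very narrow peaks made up a larger share at the ends. Of the end peaks, 34 (8.97%, exact interval 6.29 to 12.3) were narrower than a read, against 5.37% of all combined peaks. The ends of I held 14 of them, 17.7% of its 79 end peaks, and 4.83% of peaks in the rest of I were as narrow. With I left out, the shares were 6.67% of 300 peaks at the ends and 5.19% of 4660 in the rest. Of the 34, 30 overlapped neither replicate, as did 247 of the 293 equally narrow peaks in the rest. Within 2000 bp of another combined peak lay 16 of the 34 at the ends and 114 of the 293 in the rest. The lowest q of the 34 was 7.87e-05. This count was made after the widths had been seen and was not tested. Peaks in both replicates were wider and stronger at the ends as in the rest, with median widths of 441 bp at the ends and 445 bp in the rest and median q of 8.58e-12 and 1.04e-11. Those in neither had medians of 188.5 and 202 bp, and a median q of 0.00227 at the ends and 0.00270 in the rest.

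The limit of 500 kb fell between peaks that lay at varying distances from it. At the right end of II the combined peaks on either side of it lay 484.2 and 633.8 kb from the end. Over the 12 ends, the combined peaks just inside the limit lay 466.7 to 499.5 kb from their ends and had a median width of 271 bp and a median q of 0.000448. Those just outside lay 502.8 to 633.8 kb away, with 337 bp and 0.000215.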

How the data were processed

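The members and lists were chosen with earlier results of these data known. The authors called 3 peak lists with PeakSeq (per the file headers and source columns; version not given in the sources used here), on merged ChIP reads and on ChIP replicates 1 and 2, against input. Each peak has the q-value the authors deposited, 0.01 or lower. Reads were aligned to WS180, per the deposited sample table, and peaks carried to WS220, per the file headers. The deposited read counts are whole reads per library: 6307945 and 6005290 for ChIP, of which 3763795 and 2961912 mapped uniquely, and 2762470 and 2799514 unique for input. For the aligner, the sources used here give no name.

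Ends were compared with the rest of the same chromosome by exact two-sided sign-flip permutation over 6 chromosomes, adjusted over 8 measures, threshold 0.05. Overlap meant at least 1 bp. Named regions are the lowest-q and the outermost combined peak of each end, the 10 lowest q, the widest, and the 3 lowest-q replicate peaks per list without a combined peak. Window ranks count the end windows and the full 500-kb windows between them. Poisson and Clopper-Pearson intervals are 95%. Alternatives changed the window, the rest, the overlap rule, the list, the chromosomes and the peaks kept. Code was tested on simulated lists. Peaks were not assigned to genes and no sequence is shown, since no genome of the build was used here. Scripts ran in Python 3.11.15, with scipy 1.17.1 for tests and intervals, pandas 2.3.3 and numpy 2.4.6 for tables, and matplotlib 3.10.9 for plots.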

Additional observations from a re-analysis of the deposited data

How the results depend on the processing

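All values here are mean differences over chromosomes, ends minus rest. No comparison passed the adjusted threshold in the main analysis or under any of the 107 alternatives, whose lowest unadjusted exact permutation p was 0.0625, and 87 kept their direction. Alternatives with 5 chromosomes cannot give a lower p than that. Each alternative was adjusted with the main p-values of the other measures, so even 0.03125, the smallest p of 6 chromosomes, could not have passed. The alternatives thus say nothing about the threshold, only about size and direction. The cause of the other 20 changes was not tested. Density (0.789 per Mb) changed sign with windows of 1 Mb (−8.38), without peaks narrower than a read (−1.73), with the lowest-q 50% of peaks (−1.38), as percent of bases covered (−0.237), without chromosome III (−0.219) or V (−2.01), and in the lists of single replicates (−1.70 to −1.52). Width (−27.5 bp) did so with neighbours joined (2 bp). Median −log10 q (−0.12) did so with windows of 1 Mb (0.118), without III (0.0498) and in single replicates (0.00651 to 0.183). Overlap with replicate 1 (−1.99 percentage points) did so against the next 500 kb (1.69), with the lowest-q 50% (0.894) and without III (0.467). Overlap with replicate 2 (−2.94) did so with windows of 1 Mb (1.69). The share in neither (2.42) did so against the next 500 kb (−1.26), with the lowest-q 50% (−0.379) and without III (−0.291). Without the peak at the tip of I, the excess of unmatched replicate peaks was 1.06 in place of 1.51 percentage points in replicate 1 and 0.971 in place of 1.90 in replicate 2. That peak and the chromosomes were left out by choices made after the data were seen.

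No paired analysis was possible because ChIP and input libraries enter the lists only through the authors' calling. Depth limits what a missing peak shows, and 6 chromosomes cannot give a p below 0.03125. ChIP replicate 2 had fewer unique reads than replicate 1, and its list holds 3 to 22 peaks at each end.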
